A study of Mus musculus with 10 samples.

Results

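The dense chromosome 10 stretch around Mdm2 is described here through 266 DNase I hypersensitive (DHS) sites and the 3116 footprints inside them, of 129028 sites and 329076 footprints in the deposited lists. Members are all sites that overlap chr10:116000000-118100000 (mm9), a window of 2.1 Mb. This window was chosen on measured values, namely site number, footprints per site and footprints in sites narrower than 532 bp. These values therefore describe it, and no test was made on them. The 2 Mb on each side, with 164 sites and 413 footprints, serve as reference. Mdm2 was placed near 117126000 to 117148000. At the left limit of the window, the last site outside (chr10:115918871-115919374) and the first inside (chr10:116013281-116013577) held no footprint. At the right limit, the last site inside (chr10:118058241-118060576) held 35 footprints and the first outside (chr10:118174026-118174645) held 2.

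The sites were mapped in 3T3-L1 preadipocytes, mouse cells that can be driven to become fat cells. Cells at day 0, 2 days after confluency, were harvested 4 h after adipogenic induction with dexamethasone (a glucocorticoid, 1 µM), 3-isobutyl-1-methylxantine (an inhibitor of cyclic AMP breakdown, 0.5 mM), insulin (1 µg/mL) and 10% FCS. Both samples of the DNase I group, 1 of them sequenced from paired ends, are runs of 1 library, which the authors pooled with earlier reads of that library. There is thus no replicate, no untreated control and no error between cultures for any value given here. Read depth and DNA copy number over the window were not analysed here, and their part in the values was not tested. The series also holds 8 RNA-seq samples in 4 groups (knockdown of C/EBPβ by shRNA and its scrambled control, each at 0 h and 4 h), which were not analysed here, so no expression value of Mdm2 is given.

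DNase I cuts nucleosome-free DNA readily, so a cluster of cuts marks accessible chromatin, and a short protected stretch within it, a footprint, can mark a bound protein. Mdm2 encodes the ubiquitin ligase that binds p53 and sends it for degradation, and p53 in turn activates Mdm2, which closes a feedback loop. The gene took its name from the double minute chromosomes of a transformed mouse 3T3 line, on which it was found amplified. In the gene order of the RefSeq annotation of GRCm38.p6, the protein-coding genes before Mdm2 are, from near to far, Cpm (a carboxypeptidase of the cell surface), Cpsf6 (a factor of mRNA cleavage and polyadenylation), the lysozyme genes Lyz1 and Lyz2, and 9530003J23Rik. After it come Slc35e3 (a solute carrier family member), Nup107 (a subunit of the nuclear pore), Rap1b (a small GTPase of cell adhesion), Mdm1 and Il22 (a cytokine). That annotation is on another build than the lists, so none of these neighbours was tied to a site.

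The promoter of Mdm2 is shown because the accessible site with the third most footprints in the window, and the most in the dense stretch, spans the upper end of the Mdm2 interval, where this minus-strand gene starts. The sequence is from RefSeq (GRCm38.p6, minus strand), 5′ to 3′, from 250 bases before the start of the gene to 50 bases after it. Capitals mark, in order, a match to a single p53 consensus unit, 2 GC boxes, a CCAAT box and an ETS core. The p53 unit is a part of the p53 element and not the whole of it.
Mdm2: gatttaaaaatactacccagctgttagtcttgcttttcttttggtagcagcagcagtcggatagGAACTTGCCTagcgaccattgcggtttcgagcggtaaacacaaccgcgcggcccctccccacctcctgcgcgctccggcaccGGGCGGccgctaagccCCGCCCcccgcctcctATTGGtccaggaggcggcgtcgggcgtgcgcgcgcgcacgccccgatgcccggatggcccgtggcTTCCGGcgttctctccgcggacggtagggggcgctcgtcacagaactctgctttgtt

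This promoter sequence holds 35 CG pairs, against a median of 7 over 32851 promoters of the same length. Of these promoters, 6.95% have as many or more. Both strands were searched and no marked match overlaps another. The GC box (GGGCGG) matched at -104 on the gene's strand and at -88 on the other, and 35.7% of promoters hold at least 1. The CCAAT box (CCAAT) matched at -72 on the other strand (37.4% of promoters), the ETS core (CCGGAA) at -7 on the other strand (14.9%), and the p53 unit at -186 (8.36%). The letters of AP-1 (TGANTCA, in 7.81% of promoters), the cyclic AMP element (TGACGTCA, 1.79%) and a C/EBP palindrome (TTGCGCAA, 0.183%) are not in this sequence. The E-box (CACGTG, 7.15%), AGAACA of the glucocorticoid element (19.0%) and the TATA box (TATAAA, 13.6%) are also absent from it. These matches are letters in a sequence and not sites of binding, and which of these bases the footprints cover was not determined.

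Site number rose and fell as a block of 9 steps. In 50 kb steps, with a site counted where its centre lies, the 80 flank steps held 0 to 9 sites (median 2), and 17 of them held none. A step was counted as raised when it held more than 9 sites, which 435 of 51602 steps of the whole list do (0.843%). From 116800001 to 117250000, the successive steps held 22, 26, 16, 21, 18, 7, 18, 23 and 21 sites. All but the step from 117050001 were raised, and this gap of 1 step was joined over. The highest step, from 116850001, had 26 sites, and 5 steps of the whole list had more. The 33 other steps of the window held 0 to 10 sites with a median of 3, close to the flanks, and only the step from 117700001, with 10, was raised. These 9 steps are called the dense stretch below.

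The edges of the dense stretch lay at gaps in the site list. Its first site was chr10:116813773-116814389 (9 footprints) and its last chr10:117229488-117230303 (12 footprints), 416.5 kb apart end to end. No site lay in the 81.8 kb before it or in the 51.6 kb after it. The first 50 kb inside the left edge held 30 sites and 474 footprints, and the last 50 kb inside the right edge 32 sites and 342 footprints, against 0 sites in the 50 kb outside either edge. Fitting piecewise constant levels to counts in 10 kb steps put the limits at 116810001 and 117230000, hence at the same first and last site, with a level of 20.5 sites per 50 kb between 2.26 before and 2.76 after. Mdm2 is not at the centre, since the stretch reaches 312.2 kb beyond the lower end of the Mdm2 interval and 82.3 kb beyond the upper end. Smaller steps of 25 kb, or no joining over a low step, ended the run at 117047328, before Mdm2, because of the sparse step from 117050001. Steps of 100 kb moved its last site to 117283831.

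**Figure D1:**
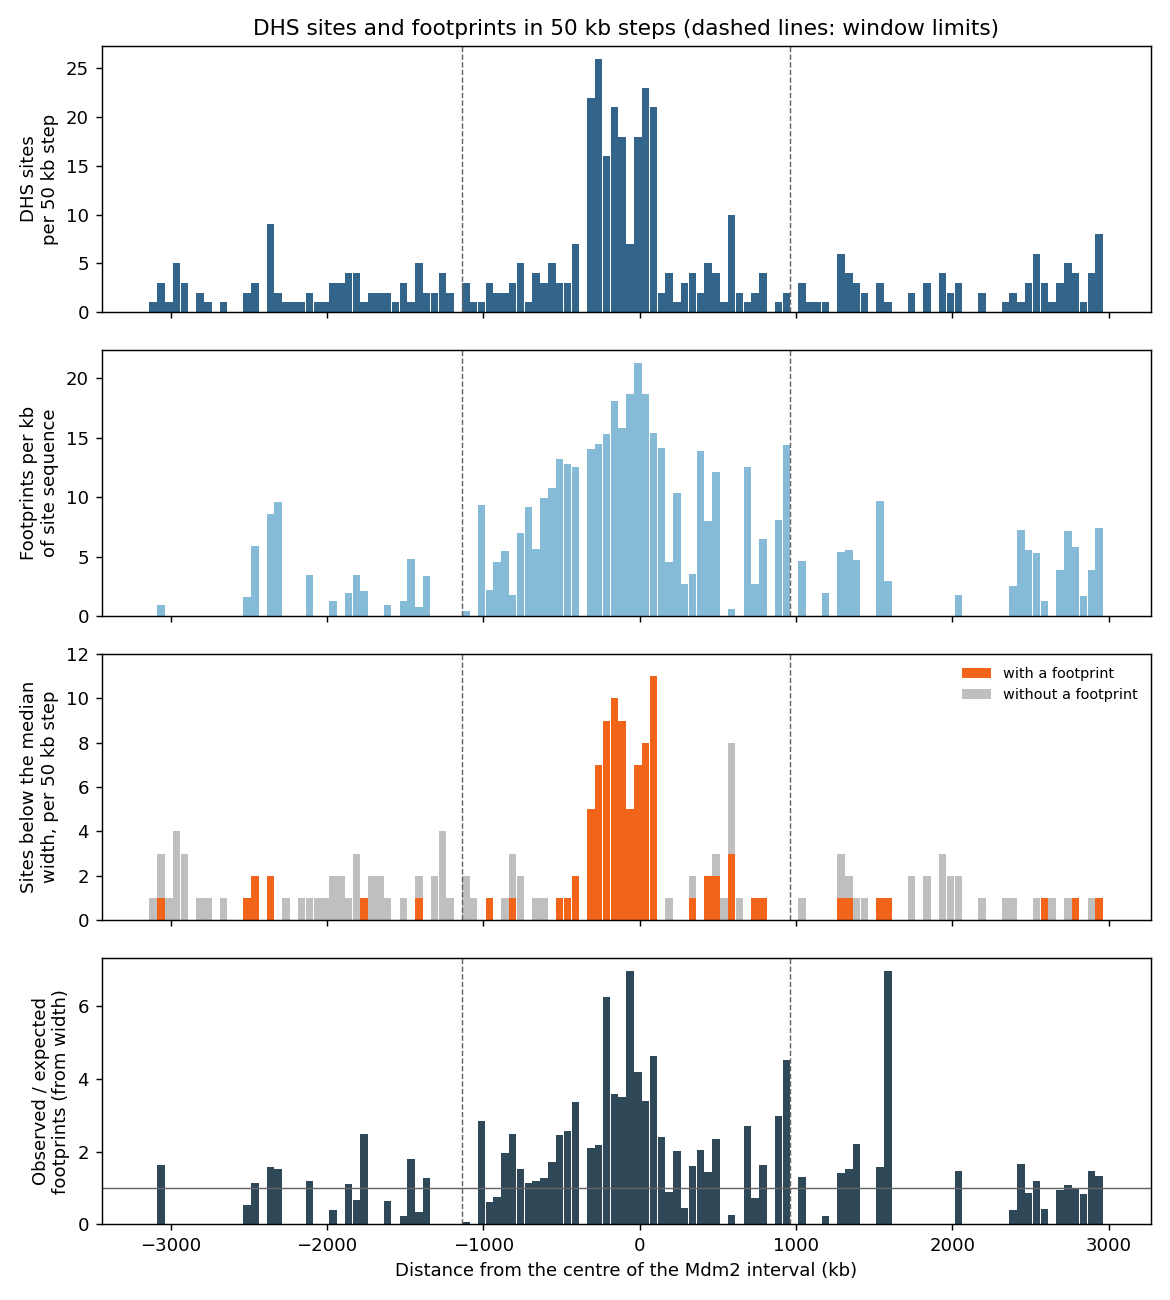
Number of DHS sites, footprints per kb of site sequence, sites narrower than 532 bp with and without a footprint, and observed over width-expected footprints (horizontal line at 1), each per 50 kb step, against distance in kb from the centre of the Mdm2 interval; dashed lines mark the window, and empty steps are drawn at 0. Site number forms a block of 9 steps with 7 to 26 sites, while footprints per kb climb more gradually to 21.3 in the step that holds the Mdm2 interval. A single flank step with 1 site also reaches 6.98 in the lowest panel.

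Inside the dense stretch there were 172 sites, 64.7% of the window's sites in 21.4% of its length. The density was 19.1 sites per 50 kb, against 2.88 in the window before it, 2.82 in the window after it and 2.05 in the flanks. Neighbouring sites were a median of 756 bp apart, compared with 11532 bp in the flanks. Sites covered 31.03% of the stretch and 2.56% of the flanks. Sites were somewhat wider, with a median of 609 bp (interquartile range 384.5 to 933 bp) against 534.5 bp (369.5 to 686.75 bp) in the flanks and 532 bp (380 to 719 bp) in the whole list. The stretch held both kinds, with 71 of the 172 sites (41.3%) narrower than 532 bp and 57 of 794 bp or wider.

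Every one of the 172 sites held at least 1 footprint (100%, 95% Wilson interval 97.8 to 100%, for counting error only), where 45.4% of all sites do. In the flanks it was 81 of 164 sites (49.4%, 41.8 to 57.0%), and in the window outside the stretch 70 of 94 (74.5%, 64.8 to 82.2%). The flanks differed, with 37.0% (27.3 to 47.9%) in the left and 61.4% (50.7 to 71.2%) in the right. The window had 78.3% (64.4 to 87.7%) before the stretch and 70.8% (56.8 to 81.8%) after it. On the right side the intervals of window and flank overlap. The 172 sites held 2300 footprints, 73.8% of the window's 3116 and 0.699% of the whole list, with a mean of 13.4 per site (SD 11.6 over sites) and a median of 10. The flanks had 2.52 per site with a median of 0. In the stretch 90 sites had 10 or more footprints, 65 had 5 to 9, 16 had 2 to 4 and 1 had a single footprint, whereas 13 of the 164 flank sites reached 10. Flanks of 1 Mb held fewer footprints, and the ratio of means, 5.31 with 2 Mb flanks, was 9.43 against them.

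In narrow sites the share with a footprint, and the ratio of footprints per site to the flanks, differed more from the flanks than over all sites. Footprints in narrow sites were among the measures that chose the window, so these values only describe it. All 71 sites under 532 bp held a footprint (100%, Wilson interval 94.9 to 100%), where 15.7% of such sites in the whole list do. In the flanks it was 15 of 80 (18.8%, 11.7 to 28.7%), and in the rest of the window 16 of 36 (44.4%, 29.5 to 60.4%). The narrow sites of the stretch held 1 to 11 footprints with a median of 6, and those of the flanks 0 to 5 with a median of 0. Their mean was 6.07 per site against 0.275 in the flanks, at a median width of 370 and 363 bp. Of the 373 narrow sites in the whole list with 5 or more footprints, 54 (14.5%) lay in the stretch, which holds 0.110% of all narrow sites. Of the 6 with 10 or more, 5 lay there. These were chr10:117212135-117212664 and chr10:117221108-117221635 with 11 footprints each, and chr10:116992337-116992844, chr10:117023977-117024456 and chr10:117035868-117036329 with 10 each.

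Sites of equal width showed the same order. Between 251 and 340 bp, the narrowest of 5 width classes of equal number, the 25 sites of the stretch held 4.88 footprints on average and at least 2, compared with 0.103 for 39 flank sites and 0.0988 in the whole list. Between 471 and 600 bp the means were 8.24 in the stretch, 1.05 in the flanks and 0.865 in the list. In the widest class, from 794 bp, they were 24.6, 9.47 and 8.89. The ratio of the stretch to the flanks fell as sites became wider, while the difference in means grew. Against the number expected from the width of each site in the whole list, the stretch held 3.09 times as many footprints, its narrow sites 21.8 times as many, the window outside it 2.07 times and the flanks 1.03 times. Without its 2 sites above 5 kb, the window outside the stretch held 1.46 times the expected number.

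**Figure D2:**
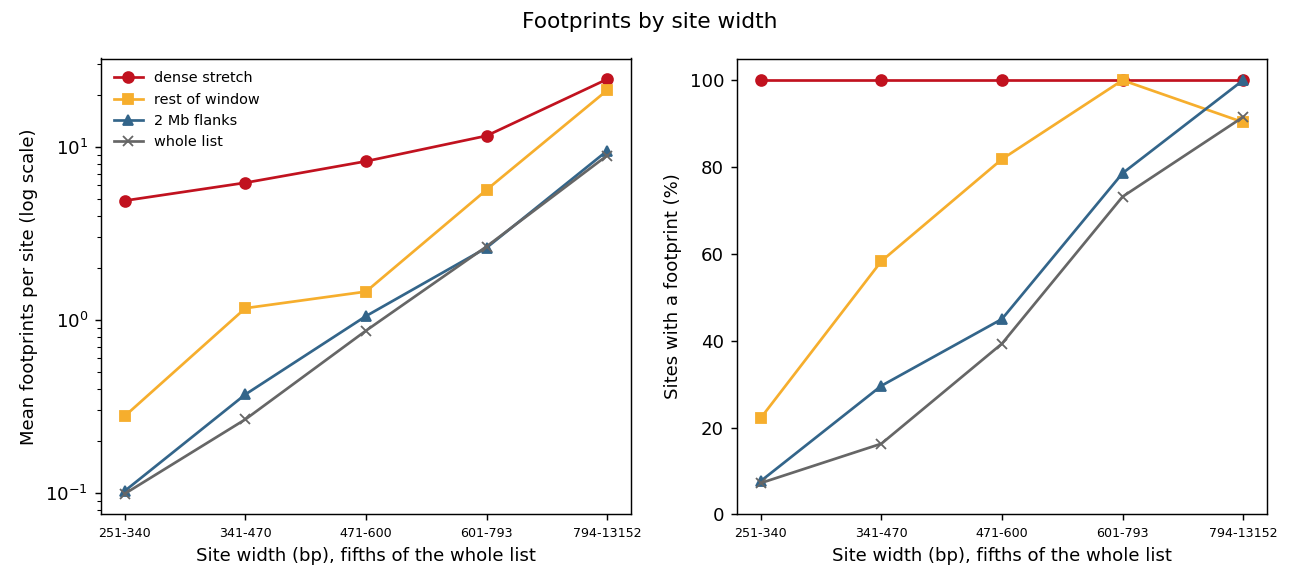
Mean footprints per site (left, log scale) and share of sites with a footprint in percent (right) in 5 classes of site width for the dense stretch, the rest of the window, the 2 Mb flanks and the whole list. The stretch lies above the others at every width on the left and at 100% throughout on the right, which the flanks reach only in the widest class. The distance on the left is widest for sites of 251 to 340 bp (4.88 against 0.103 in the flanks).

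Footprint density had a different profile from site number. Sites of the stretch carried 16.5 footprints per kb, compared with 4.03 in the flanks. From the first to the last step of the stretch the density was 14.0, 14.5, 15.3, 18.1, 15.8, 18.7, 21.3, 18.6 and 15.4 per kb. The highest value, 21.3, belonged to the step from 117100001, which holds the whole Mdm2 interval. The sparse step from 117050001, with 7 sites, had 18.7 per kb, although its 9 footprints per site were below the mean of the stretch. The median width of its sites was 370 bp, the lowest of the 9 steps, and the highest was 1202 bp in the first step. In narrow sites alone the density ran from 13.04 to 19.7 per kb over the 9 steps, and was again highest in the step from 117100001. No flank step exceeded 9.71 per kb for all sites or 7.49 for narrow ones. Footprints per site separated the steps less well. They ran from 7.5 to 18.2 over the 9 steps, and only the step from 117100001 exceeded the highest flank step, which had 17.

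The rise in footprints per kb began before the rise in sites. From 116550001 the 4 steps up to 116750000 held 5, 3, 3 and 7 sites, within the range of the flanks, but 10.8, 13.2, 12.8 and 12.5 footprints per kb, all above every flank step. The step before them, from 116500001, had 9.93, just above the highest flank step. Relative to the number expected from site width, the picture was less even. The steps from 116500001 and 116550001 held 1.27 and 1.72 times that number, below the flank limit of 2.21 (steps of 3 or more sites). Those from 116600001, 116650001 and 116700001 held 2.47, 2.57 and 3.35 times. Of the 233 footprints in the step from 116700001, 151 lay in 1 site of 11329 bp. The expected number of that site, 20.1, is the mean of the widest class, which spans very different widths. The 3.35 therefore rests largely on that site. The steps from 116800001 and 116850001, in the dense stretch, held 2.11 and 2.18 times the expected number. By this ratio the run began at 116899885. On the other side, the step from 117250001 (2 sites) had 14.2 per kb and the next (4 sites) 4.59. Beyond it the values went up and down without a clear edge, and 6 steps after the dense stretch, of 10.4 to 14.4 per kb, lay above every flank step. Followed site by site, footprints were present without a break in 193 neighbouring sites, from chr10:116566970-116567636 to chr10:117309606-117310254, over 743.3 kb. By number of sites, the next such row in the whole list had 73, on chromosome 2. The third had 71, on chromosome 17, over a longer span of 964.3 kb. The row around Mdm2 starts 246.8 kb before the dense stretch and ends 79.95 kb after it. The sites that bound it, chr10:116515442-116515697 and chr10:117330417-117330741, were 256 and 325 bp wide and held none. The row is made of footprinted sites by definition, so shares and levels inside it were not set against those outside it.

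**Figure D3:**
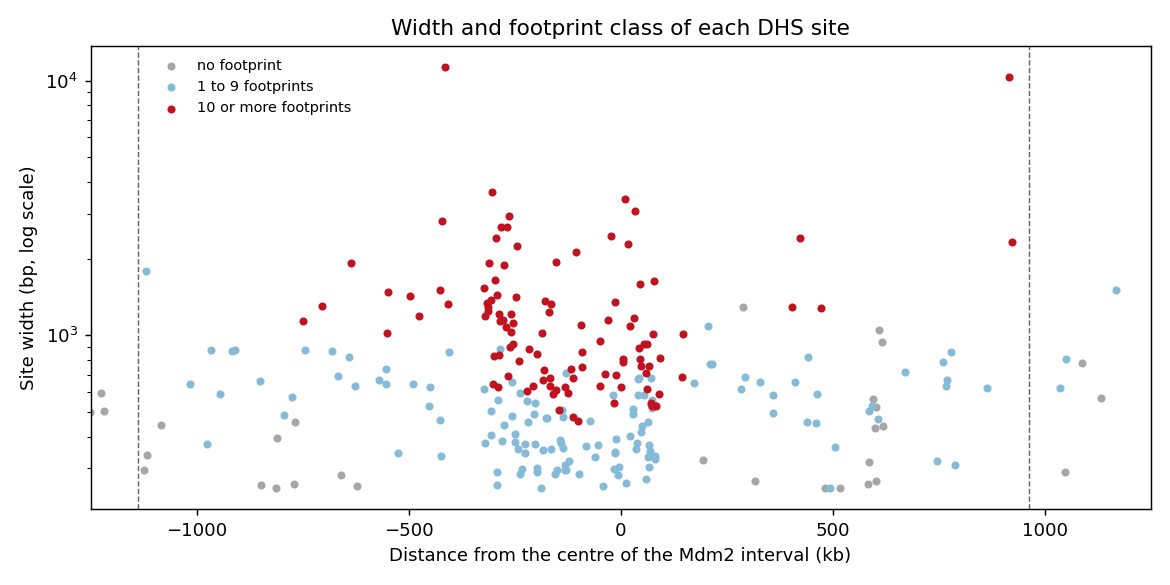
Width in bp (log scale) of each DHS site against distance in kb from the centre of the Mdm2 interval, coloured by footprint class (none, 1 to 9, 10 or more); dashed lines mark the window. No grey point (site without a footprint) lies in the dense stretch, and the 2 sites above 10 kb lie outside it, 1 on each side.

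The window also held sites of unusual width, outside the dense stretch. Of 5 sites of 10 kb or more in the whole list, 2 lay here. The site chr10:116717300-116728628 (11329 bp) held 151 footprints, 13.3 per kb, and belongs to a block of 7 sites and 233 footprints within 21.9 kb (chr10:116710061-116731932) just before the 81.8 kb without a site. The site chr10:118047704-118058030 (10327 bp) held 147 footprints, 14.2 per kb, and forms with its neighbour a pair with 182 footprints at the right end of the window. The other 3 of this size, on chromosomes 7, 16 and 19, held 97, 16 and 259 footprints. Without sites of 5000 bp or more, the window's mean was 4.24 times that of the flanks, against 4.65 with them. The stretch itself has no site of that width.

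The remaining 8 of the 10 member sites with the most footprints all lay in the dense stretch. They held 80, 59, 55, 51, 49, 48, 44 and 41 footprints and were 1940 to 3665 bp wide. In order, they were chr10:117145748-117149179, chr10:117170638-117173727, chr10:117112772-117115220, chr10:117153906-117156186, chr10:116832877-116836541, chr10:116871932-116874875, chr10:116892055-116894296 and chr10:116983462-116985401. The first 4 of them lay at or near Mdm2 and carried 19.1 to 23.3 footprints per kb. The 4 others, further to the left, carried 13.4, 16.3, 19.6 and 21.1, so the ranges overlap.

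The Mdm2 interval itself was crossed by 8 sites, all with footprints. From its lower to its upper end they held 13, 9, 2, 7, 13, 15, 19 and 80 footprints, at widths of 699, 390, 282, 304, 625, 788, 809 and 3432 bp. Together they had 158 footprints at 21.6 per kb, against 16.2 per kb for the other 164 sites of the stretch. The site with 80, chr10:117145748-117149179, covers the upper end of the interval, and footprints make up 39.7% of it. Its median score was -8.29, compared with -4.77 over the stretch. The score is the authors' own value for each footprint, always negative, and more negative was read as stronger. Of the 5 strongest finite scores in the window, the first (-61.5, chr10:117147892-117147917), the second (-60.0, chr10:117147785-117147809) and the fourth (-33.7, chr10:117147729-117147757) lay in that site. The third (-38.6) was at chr10:117183469-117183488, and the fifth (-33.3) at chr10:117229918-117229945, in the last site of the stretch.

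A group of crowded sites further right carried few footprints. From chr10:117719675 to 117755791, 12 sites lay within 36.1 kb, which gave the only raised step outside the dense stretch. They held 3 footprints in all, 0.169 times the number expected from their widths. In the whole list, 1 run of raised steps was longer than the dense stretch, with 10 steps against 9, on chromosome 6 from 130500001 to 131000000. It had 10.5 sites per step, 51.4% of its sites held a footprint, and footprints were 0.550 times the expected number. Dense sites and abundant footprints occurred together in other places too. The row of 73 footprinted sites on chromosome 2, from 77707577 to 77887805, had 20.3 sites per 50 kb and 10.5 footprints per site, and a row of 54 on chromosome 11, from 3023242 to 3249269, had 11.9 sites per 50 kb and 17.0 footprints per site.

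Footprints of the stretch were shorter and spread further over their sites than those of the flanks. Both measures can move with the number of footprints in a site, which chose the window. Their median width was 15 bp, against 22 bp in the flanks and 21 bp in the whole list. Footprints of 15 bp or less made up 51.0% in the stretch and 28.3% in the flanks, and those at the 30 bp limit 4.09% and 9.44%. In narrow sites the medians were 14 bp in the stretch (431 footprints) and 27 bp in the flanks (only 22 footprints). Footprints also reached nearer to site edges. The mean distance from the site's centre, on a scale from 0 at the centre to 1 at the edge, was 0.440 in the stretch, 0.290 in the flanks and 0.292 in the list. The centres of 42.4% of footprints lay in the outer part of the site (0.5 or more), against 18.2% in the flanks. The median gap between neighbouring footprints was 21.5 bp in the stretch and 20 bp in the flanks. At like numbers the values still differed. In sites with 5 to 9 footprints, the median footprint width was 15 bp in the stretch (65 sites), 22 bp in the flanks (18 sites) and 21 bp in the list (14759 sites). The mean distance from the centre in these sites was 0.446, 0.295 and 0.261. The sites themselves were narrower in the stretch, with a median of 409 bp against 770.5 bp in the flanks. Number and site width were not matched together, so whether the values differ at like width was not tested.

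**Figure D4:**
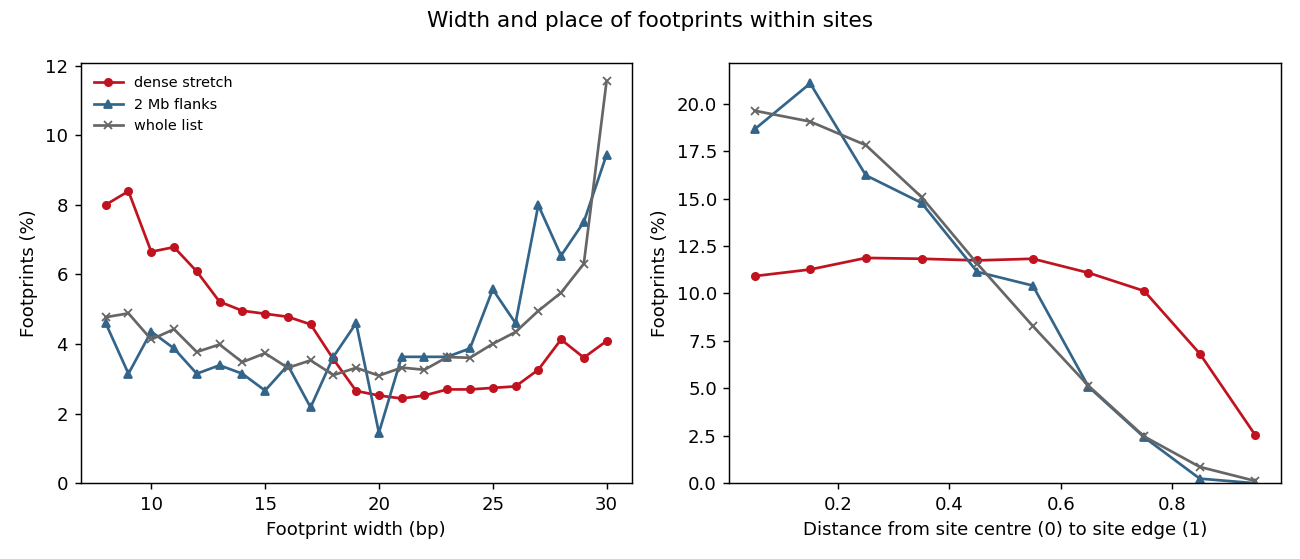
Distribution of footprint width in bp (left) and of the place of footprint centres between site centre (0) and site edge (1) (right), as percent of footprints, for the dense stretch (2300 footprints), the flanks (413) and the whole list. Footprints of the stretch are shifted to short widths (51.0% at 15 bp or less) and spread almost evenly over the inner part of sites, while those of the flanks gather at the centre.

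Scores were more negative in the stretch than in the flanks. Their scale is not given, so the size of this shift was not compared with that in numbers. The median finite score was -4.77 in the stretch (interquartile range -5.88 to -4.10), -4.47 in the rest of the window and -4.24 in the flanks, so the ranges overlap widely. In narrow sites it was -4.42 in the stretch and -3.77 in the flanks, the latter from only 22 footprints. By step, the median ran from -4.50 in the step from 116800001 to -6.00 in the step from 117100001. Of the stretch's footprints 62.9% were among the stronger 50% of the whole list, against 43.1% in the flanks. With that stronger 50% alone, 97.7% of the sites and 94.4% of the narrow sites in the stretch still held a footprint, and the mean per site was 7.75 times that of the flanks.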

How the data were processed

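Both deposited lists were used. Per the labels, further reads of 1 library of DNase I-treated nuclei were combined by the authors with earlier reads of it before sites and footprints were called. The submitters' processing notes name mm9 and HOMER. The footprint caller, the tool versions and the role of HOMER are not given in the sources read for this work. The DHS list holds positions alone. The deposited footprint list adds a score, headed as a p-value per the file headers, which is negative throughout (highest -3.54) or -Inf, with no log base given. It was used to rank footprints. The names of the deposited files carry a false discovery rate of 0.01 for footprints and 0 for sites, and the largest footprint width found is 30 bp. Positions are given 1-based.

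A footprint belonged to the site it overlapped by 1 bp or more, and all 329076 lay fully inside one. No sites of the window overlapped. Steps of 50 kb ran from 114000000 to 120100000. A step was raised above the highest of the flanks (9 sites, also the 99th percentile of all steps), and raised runs were joined over at most 1 step. Expected footprints are means in 50 classes of site width over the whole list. The widest class spans sites of very different width, so no ratio is given for single large sites. Intervals are Wilson's at 95%.

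The window and the measures were chosen with earlier results of these data known. Sites named are, by rule, the 10 members with the most footprints, the 5 narrow ones with the most, the 5 strongest footprints, those on the Mdm2 interval, the extreme steps and the sites at each edge. The blocks (sites at most 12.5 kb apart), the comparison at like numbers of footprints, other runs and the row of footprinted sites were added after the values were seen. No test was made, since there is 1 library and the readout chose the window. Steps were checked on simulated data with known answers. Python 3.11.15, numpy 2.4.6, pandas 2.3.3, scipy 1.17.1 and matplotlib 3.10.9 were used.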

Additional observations from a re-analysis of the deposited data

How the results depend on the processing

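No paired analysis was possible because a single library gave the sites and footprints; the numbered RNA experiments were not analysed here. For the same reason no replicate could be left out. In all, 3 measures of the edges, and the expected number without sites of 5000 bp or more, were added after the data were seen, the edge measures being the row of footprinted sites and 2 that use only steps with 3 or more sites or narrow sites. The first site of the stretch, main position 116813773, moved to 116710061 with footprints per site as the measure, to 116660935 with footprints per kb of narrow sites, to 116899885 with observed over expected footprints, and to 116566970 with the row of footprinted sites. Its last site, main position 117230303, moved to 117047328 with steps of 25 kb or no joining, to 117283831 with steps of 100 kb, to 116731932 with footprints per site, and to 117310254 with the row. Smaller moves were also seen. Steps of 25 kb and steps shifted by 25 kb put the first site at 116824886. The shifted steps put the last site at 117221635, with 164 sites in the run. With footprints per site, only 3 separate steps of the window passed the limit of 17 set by a flank step with 2 sites, those from 116700001, 117100001 (18.2) and 118050001, and the run is the first of them. Against 1 Mb flanks, footprints per site were 9.43 times those of the flanks in the stretch and 8.26 times in the window. With the stronger 50% of footprints, sites with a footprint made up 97.7% in the stretch and 79.3% in the window, and of narrow sites 94.4% and 65.4%, as fewer footprints remain.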

Other observations

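Of the 496 footprints with a score of -Inf in the whole list, 5 lay in the window. The 3 in the dense stretch were 8, 10 and 13 bp wide, in sites with 41, 22 and 59 footprints. The other 2, of 23 and 20 bp, were the only footprints of a pair of neighbouring sites, chr10:117495268-117495761 and chr10:117495848-117496428. Among the 10 rows with the most neighbouring sites that each hold a footprint, the row around Mdm2 had 193 sites and 2668 footprints, and the others had 54 to 73 sites. The rows on chromosomes 2 and 11, with 769 and 917 footprints, were singled out after their values were seen.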
